A study of Mus musculus with 15 samples.

Results

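The 51 genes described here encode the enzymes, membrane proteins and assembly factors of the peroxisome. They were taken from a list of 52 symbols, by keeping for each the probe set annotated with that single symbol and, where several existed, the one with the highest mean log2 intensity over all arrays. Prdx5 had no probe set of its own symbol and was not analysed here. The list, and the other gene lists used below, were chosen with earlier results of these data known. Their shares of called genes are therefore descriptive only. The 51 are part of 19938 genes measured in the same way. By role, 19 act in the oxidation of fatty acids or move acyl groups in and out of the organelle, 13 are peroxins and 19 are other peroxisomal proteins.

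Liver RNA was measured on 15 single-colour arrays, each from a different male mouse aged 7.5 months, give or take 2.5 weeks. Of these mice 4 were wild type (129S1/SvlmJ) and received corn oil (animals WT-52 to WT-55), and 4 were wild type and received di(2-ethylhexyl) phthalate, DEHP, dissolved in corn oil (WT-56 to WT-59). Another 4 were PPARα-null (129S4/SvJae-Pparatm1Gonz/J) and received corn oil (KO-115 to KO-118), and 3 were PPARα-null and received DEHP (KO-121, KO-122 and KO-123). DEHP was given by gavage as 4 daily doses of 1150 mg/kg, and corn oil alone served as the control. The genotypes came from different 129 substrains, kept as an inbred colony, so genotype and substrain cannot be told apart. Nothing says that the mice of a group came from separate litters, so p-values measure the spread between these animals.

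Peroxisomes shorten very long-chain, branched and dicarboxylic fatty acids by β-oxidation. Acyl-CoA oxidases begin each round, bifunctional enzymes hydrate and dehydrogenate the product, and thiolases cleave it, while medium-chain products leave as carnitine esters. PPARα, a nuclear receptor of fatty acids, is the classic regulator of these genes in rodent liver, and phthalates such as DEHP are known as peroxisome proliferators. Peroxins build the organelle by inserting its membrane proteins, importing its enzymes and dividing it.

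Differences are log2 values of intensity ± standard error from limma, over 4, 4, 4 and 3 animals, and adjusted p were corrected over all 19938 genes of a contrast. The words rose, fell and differed are kept for genes with adjusted p below 0.05. Levels are not compared between genes, since probe sets differ in brightness. The targeted gene, Ppara, read 9.64 to 9.88 in wild-type controls and 8.99 to 9.24 in null controls (-0.69 ± 0.12, adjusted p = 0.00645), so its probe set still gave signal in null liver, and the part of the gene it reads is not known here. Array medians ran from 44.4 to 47.5 intensity units. All 9 measured hepatocyte markers read at least 10.74 in log2 in every animal. In whole liver, fewer cells of a type and less RNA per cell cannot be told apart.

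In wild-type mice DEHP raised 15 of the 51 genes and lowered 1. That was 29.4% and 1.96% of them, against 2.29% of all genes raised and 1.57% lowered. By class, 10 of 19 oxidation genes, 2 of 13 peroxins and 3 of 19 others rose. The median difference was 0.468 in the oxidation class, 0.035 in the peroxins and 0.038 in the others, beside -0.015 over all genes. In null mice 1 of the 51 rose (1.96%, against 0.16% of all genes), and the class medians were 0.141, -0.061 and 0.057. The shares of all genes, here and below, include many genes of low signal, as only 9860 had a mean log2 of at least 6. In a fit of those 9860 alone, DEHP raised or lowered 17 members in wild-type mice, beside 1107 genes in all. In null mice the same fit called 3 members, beside 432 genes in all. For 4 of the 51 genes the DEHP difference itself differed between genotypes. It was larger in wild-type mice for 3 genes (5.88%, against 0.562% of all genes) and smaller for 1 (1.96%, against 0.336%). In wild-type mice the summed intensity of hepatocyte markers was 87228 to 89047 with corn oil and 81615 to 85320 with DEHP. By the test 1 of the 9 was lower. That of neutrophil markers, some as low as 3.13 in log2, was 151 to 174 and 219 to 262. Of these 7 markers 3 had differences above 0, and 1, S100a8, was called higher. Of 8 endothelial and 8 stellate cell markers, 1 each was lower by the test. The part of these markers in the results was not tested.

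Ehhadh, the bifunctional enzyme that carries out the middle steps of β-oxidation on straight chains, showed the largest of these rises. Its log2 intensity was 10.11, 10.14, 10.16 and 9.90 in wild-type controls and 12.75, 12.96, 13.42 and 12.86 in wild-type DEHP animals. In null mice it was 10.19, 9.90, 9.64 and 9.97 with corn oil and 10.39, 9.86 and 10.49 with DEHP. Every wild-type DEHP animal thus stood well above all other mice, while the null groups overlapped each other. The wild-type rise was 2.92 ± 0.15 (7.58-fold, adjusted p = 6.54e-08). The null difference was 0.32, with a 95% interval from -0.03 to 0.68 (adjusted p = 0.463), and the wild-type rise exceeded it by 2.60 ± 0.23 (adjusted p = 4.84e-05).

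Acaa1b, a thiolase that ends each round of the pathway, was likewise highest in the treated wild-type mice. It read 10.67, 10.93, 10.98 and 10.74 in wild-type controls and 12.24, 12.11, 12.52 and 12.30 in wild-type DEHP animals. It read 10.68, 10.23, 9.99 and 10.23 in null controls and 10.80, 10.11 and 10.66 in null DEHP animals. The wild-type groups did not overlap and the null groups did. The wild-type rise was 1.46 ± 0.15 (2.76-fold, adjusted p = 6.12e-05), larger than the null difference by 1.22 ± 0.22 (adjusted p = 0.019, at most 0.0494 with any animal left out). Its close copy Acaa1a, also on chromosome 9, read 9.12, 9.22, 9.35 and 9.21 in wild-type controls, 9.74, 9.58, 10.05 and 9.60 in wild-type DEHP animals, 9.18, 9.02, 8.95 and 8.87 in null controls and 9.04, 8.81 and 9.21 in null DEHP animals. It rose in wild-type mice without overlap (0.52 ± 0.11, adjusted p = 0.0121), while the wild-type minus null difference, 0.50, missed the threshold (adjusted p = 0.146). The transcripts of this pair are alike, and how far their probe sets share signal is not known here.

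Ech1, a dienoyl-CoA isomerase that prepares unsaturated chains for oxidation, was the other oxidation gene whose response differed between genotypes. Its values were 10.98, 11.34, 11.18 and 11.05 in wild-type controls and 12.10, 12.00, 12.35 and 11.92 in wild-type DEHP animals. In null controls they were 10.36, 10.03, 10.22 and 10.15, and in null DEHP animals 10.37, 10.32 and 10.32. All 7 null animals lay below every wild-type control, and the wild-type DEHP animals lay above them all. The wild-type rise was 0.96 ± 0.10 (1.94-fold, adjusted p = 5.27e-05), and it exceeded the null difference by 0.81 ± 0.14 (adjusted p = 0.0174). Without null animal KO-122 that difference had adjusted p = 0.0505.

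The proximal promoters of these 3 genes are shown because they moved together, with that of catalase as a peroxisomal gene that did not pass the test in any contrast. RefSeq (GRCm38.p6) gave promoters for 42 of the 52 listed genes. The 250 bases before the annotated start are printed, 5′ to 3′ on the gene's strand. In the first 3, capitals mark CCAAT or its reverse complement ATTGG, a common element of liver and housekeeping promoters. In catalase, capitals mark its match to the direct repeat discussed after it.
Ehhadh (chr16:21787835-21788084, minus strand): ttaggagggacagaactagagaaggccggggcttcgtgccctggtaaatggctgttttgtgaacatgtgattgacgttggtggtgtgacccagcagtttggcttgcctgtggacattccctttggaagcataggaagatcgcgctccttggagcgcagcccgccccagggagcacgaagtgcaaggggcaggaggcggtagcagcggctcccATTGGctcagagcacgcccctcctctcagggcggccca
Acaa1b (chr9:119157094-119157343, minus strand): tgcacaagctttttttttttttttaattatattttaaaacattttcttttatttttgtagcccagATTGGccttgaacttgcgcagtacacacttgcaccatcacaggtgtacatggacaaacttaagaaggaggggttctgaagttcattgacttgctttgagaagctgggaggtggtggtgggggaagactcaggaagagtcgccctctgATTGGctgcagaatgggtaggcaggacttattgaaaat
Ech1 (chr7:28825088-28825337, plus strand): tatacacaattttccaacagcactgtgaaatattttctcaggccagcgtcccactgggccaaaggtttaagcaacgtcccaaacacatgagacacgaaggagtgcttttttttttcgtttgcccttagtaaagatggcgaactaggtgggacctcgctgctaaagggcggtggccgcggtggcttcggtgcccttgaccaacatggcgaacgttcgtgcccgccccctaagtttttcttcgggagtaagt
Cat (chr2:103485154-103485403, minus strand): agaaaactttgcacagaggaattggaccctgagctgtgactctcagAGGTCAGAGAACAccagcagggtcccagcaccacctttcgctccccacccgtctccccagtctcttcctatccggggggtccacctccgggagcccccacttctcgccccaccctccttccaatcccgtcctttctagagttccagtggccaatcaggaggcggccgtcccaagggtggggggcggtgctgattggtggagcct
PPARα with its partner RXR binds direct repeats, AGGTCA followed by any 1 base and AGGTCA again. On both strands of windows from 250 bases before to 50 after the start, 0 of the 42 genes held this motif exactly, beside 0.0481% of 27025 genes. Allowing 2 mismatches in its 12 fixed letters, 2 of the 42 (4.76%) held a match, Acox2 and Cat, beside 4.4% of all genes. The catalase match, AGGTCAGAGAACA, begins at position -204 from the start. CCAAT on either strand, a search added after these sequences had been seen, occurred in the 250 upstream bases of 17 of the 42 genes (40.5%) and of 37.5% of all genes. It is present in Ehhadh (1 copy), in Acaa1b (2) and in catalase (4, not in capitals above), and not in Ech1. Both shares lie near those of all genes, and more distant sequence was not searched.

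**Figure D1:**
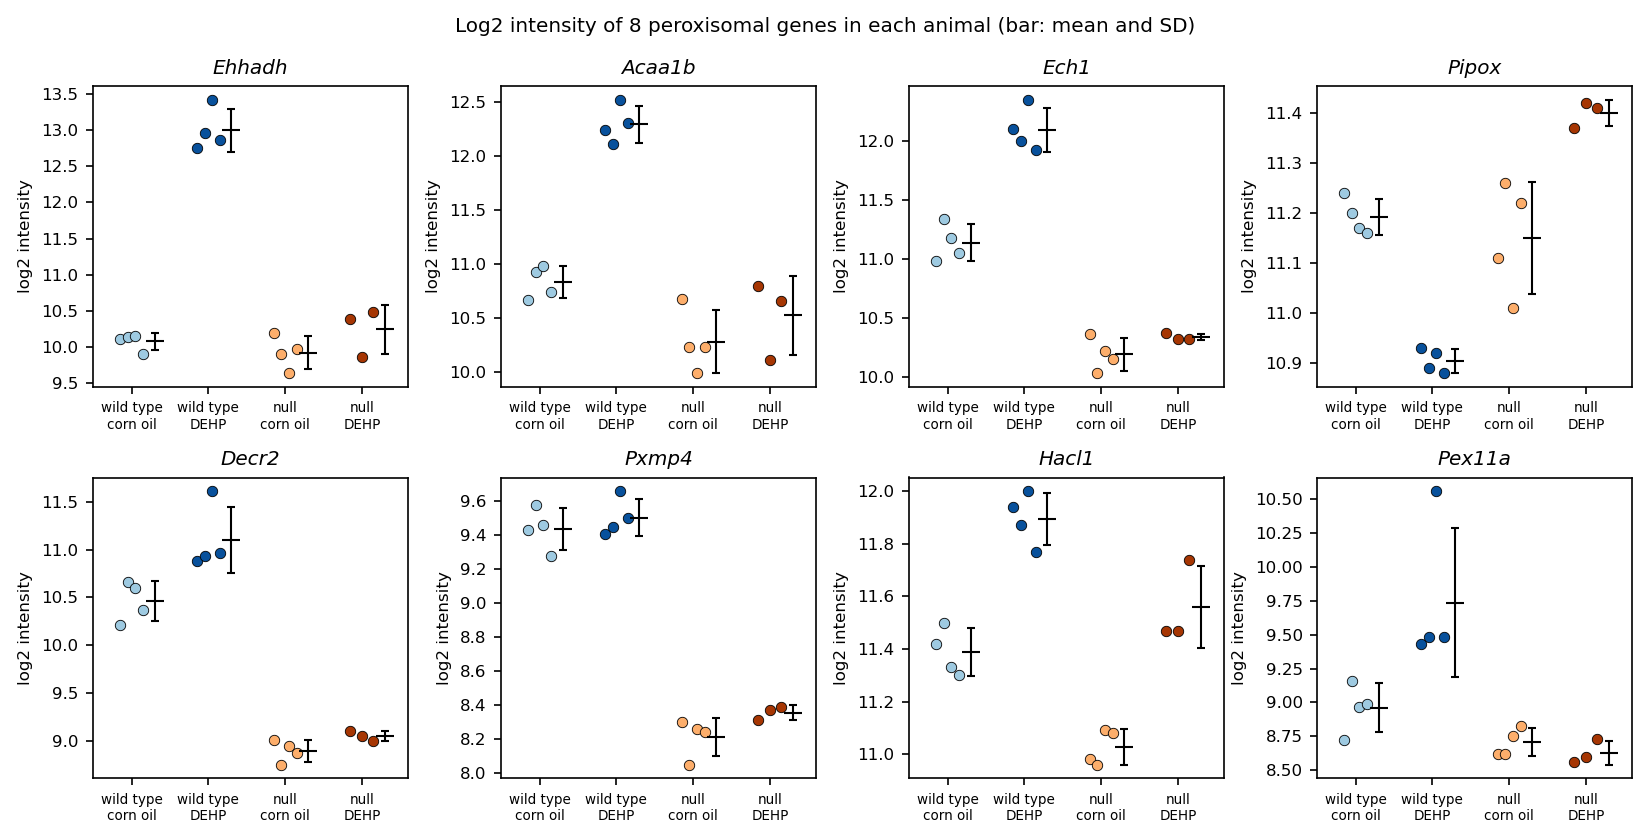
Log2 intensity of 8 peroxisomal genes (vertical axis) in each of the 15 animals, by group (horizontal axis), with 1 point per animal and a bar for the mean and SD of 4, 4, 4 and 3 animals. Ehhadh, Acaa1b and Ech1 are high in the wild-type DEHP group, Decr2 and Pxmp4 are low in both null groups, Hacl1 rises in both genotypes, and Pipox falls in wild-type mice.

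Hsd17b4, the second bifunctional enzyme of the organelle, which serves branched chains and bile acid intermediates, rose more modestly. It read 11.42, 11.41, 11.39 and 11.26 in wild-type controls and 11.59, 11.69, 11.98 and 11.66 in wild-type DEHP animals, and 10.98, 10.80, 10.84 and 10.91 and then 10.87, 10.90 and 10.98 in the null groups. The wild-type groups did not overlap (0.36 ± 0.08, adjusted p = 0.0177, and 0.0623 without control WT-55). The 3 remaining genes of the core pathway did not pass the test in any contrast. They were Acox2 and Acox3, the branched-chain acyl-CoA oxidases, and Scp2, which holds the branched-chain thiolase. Their wild-type differences were -0.01, 0.05 and 0.08, with 95% intervals that together ran from -0.18 to 0.23.

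Among the auxiliary enzymes for unsaturated chains, the dienoyl-CoA reductase Decr2 and the enoyl-CoA isomerase Eci2 rose in wild-type mice. Decr2 read 10.21, 10.66, 10.60 and 10.37 with corn oil and 10.88, 10.93, 11.61 and 10.96 with DEHP (0.63 ± 0.14, adjusted p = 0.0163). Animal WT-58 was the highest of the treated mice, with the other 3 close together. Eci2 read 9.84 to 10.29 with corn oil and 10.50, 10.57, 11.13 and 10.58 with DEHP, again without overlap (0.59 ± 0.14, adjusted p = 0.0222). Decr2 lost its call without WT-52 or WT-55 (adjusted p up to 0.0553), and Eci2 lost it without WT-52, WT-55 or WT-58 (up to 0.0718). Neither response differed between genotypes by the test (Decr2 0.48, adjusted p = 0.312, and Eci2 0.34, adjusted p = 0.514). The enoyl-CoA reductase Pecr, the racemase Amacr and the isomerase-like Eci3 had wild-type differences of -0.05, 0.14 and 0.06, without a call. Eci3 lay below the array median in all 15 animals (3.53 to 4.61, where array medians were 5.47 to 5.57).

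Hacl1, the lyase that shortens phytanic acid by a single carbon in α-oxidation, was the 1 gene of the 51 that rose in null mice in the fit over all 4 groups. It read 11.42, 11.50, 11.33 and 11.30 in wild-type controls and 11.94, 11.87, 12.00 and 11.77 in wild-type DEHP animals. Null controls read 10.98, 10.96, 11.09 and 11.08, and null DEHP animals 11.47, 11.47 and 11.74. Treated and control animals did not overlap in either genotype. The rise was 0.51 ± 0.08 in wild-type mice (1.42-fold, adjusted p = 0.00111) and 0.53 ± 0.08 in null mice (1.44-fold, adjusted p = 0.014, at most 0.0482 with any null animal left out). With only the null groups in the fit this call was lost (limma adjusted p = 0.161), and with genes of mean log2 under 6 left out, an offset of 16 before log2 or a trended robust variance, Idh1 and Pipox were called in null mice as well. The wild-type minus null difference was -0.02, with a 95% interval from -0.26 to 0.21 (adjusted p = 0.954). Phyh, the hydroxylase of the preceding step, had differences of 0.01 and 0.06 in wild-type and null mice, at levels of 13.02 to 13.26 over all animals.

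The carnitine acyltransferases Crat and Crot, which make the esters in which shortened chains leave, both rose in wild-type mice. Crat read 8.24, 8.35, 8.27 and 7.91 with corn oil and 9.02, 9.17, 10.24 and 8.87 with DEHP (1.13 ± 0.22, 2.19-fold, adjusted p = 0.00882). WT-58 was again the highest, by about 1 log2 unit. Crot read 11.56, 12.06, 11.85 and 11.66 with corn oil and 12.24, 12.24, 12.33 and 12.19 with DEHP (0.47 ± 0.10, adjusted p = 0.0197), a call lost without WT-52, WT-55 or WT-58 (up to 0.0654). In null mice the differences of Crat and Crot were 0.40 and 0.26 (adjusted p = 0.543 and 0.364), and the differences between genotypes, 0.73 and 0.21, did not pass the test (adjusted p = 0.343 and 0.618).

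The half-transporters that bring acyl-CoAs into the organelle gave less even values. Abcd2 read 5.39, 6.76, 5.68 and 6.02 in wild-type controls and 7.67, 7.69, 8.30 and 5.78 in wild-type DEHP animals. WT-59 lay among the controls and the other 3 treated animals above them. The difference of 1.40 ± 0.40 did not pass the test (adjusted p = 0.0648), and it did without WT-59 (adjusted p = 0.000676) and also without control WT-53. Abcd2 read 5.14, 5.34, 5.42 and 4.86 in null controls and 5.52, 5.39 and 5.13 in null DEHP animals, near the array medians. Over all groups it lay below the array median in 8 animals. Abcd3 read 10.94, 11.14, 11.06 and 11.01 in wild-type controls and 11.19, 11.28, 11.89 and 11.18 in DEHP animals, which do not overlap but gave no call (0.35 ± 0.12, adjusted p = 0.14).

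**Figure D2:**
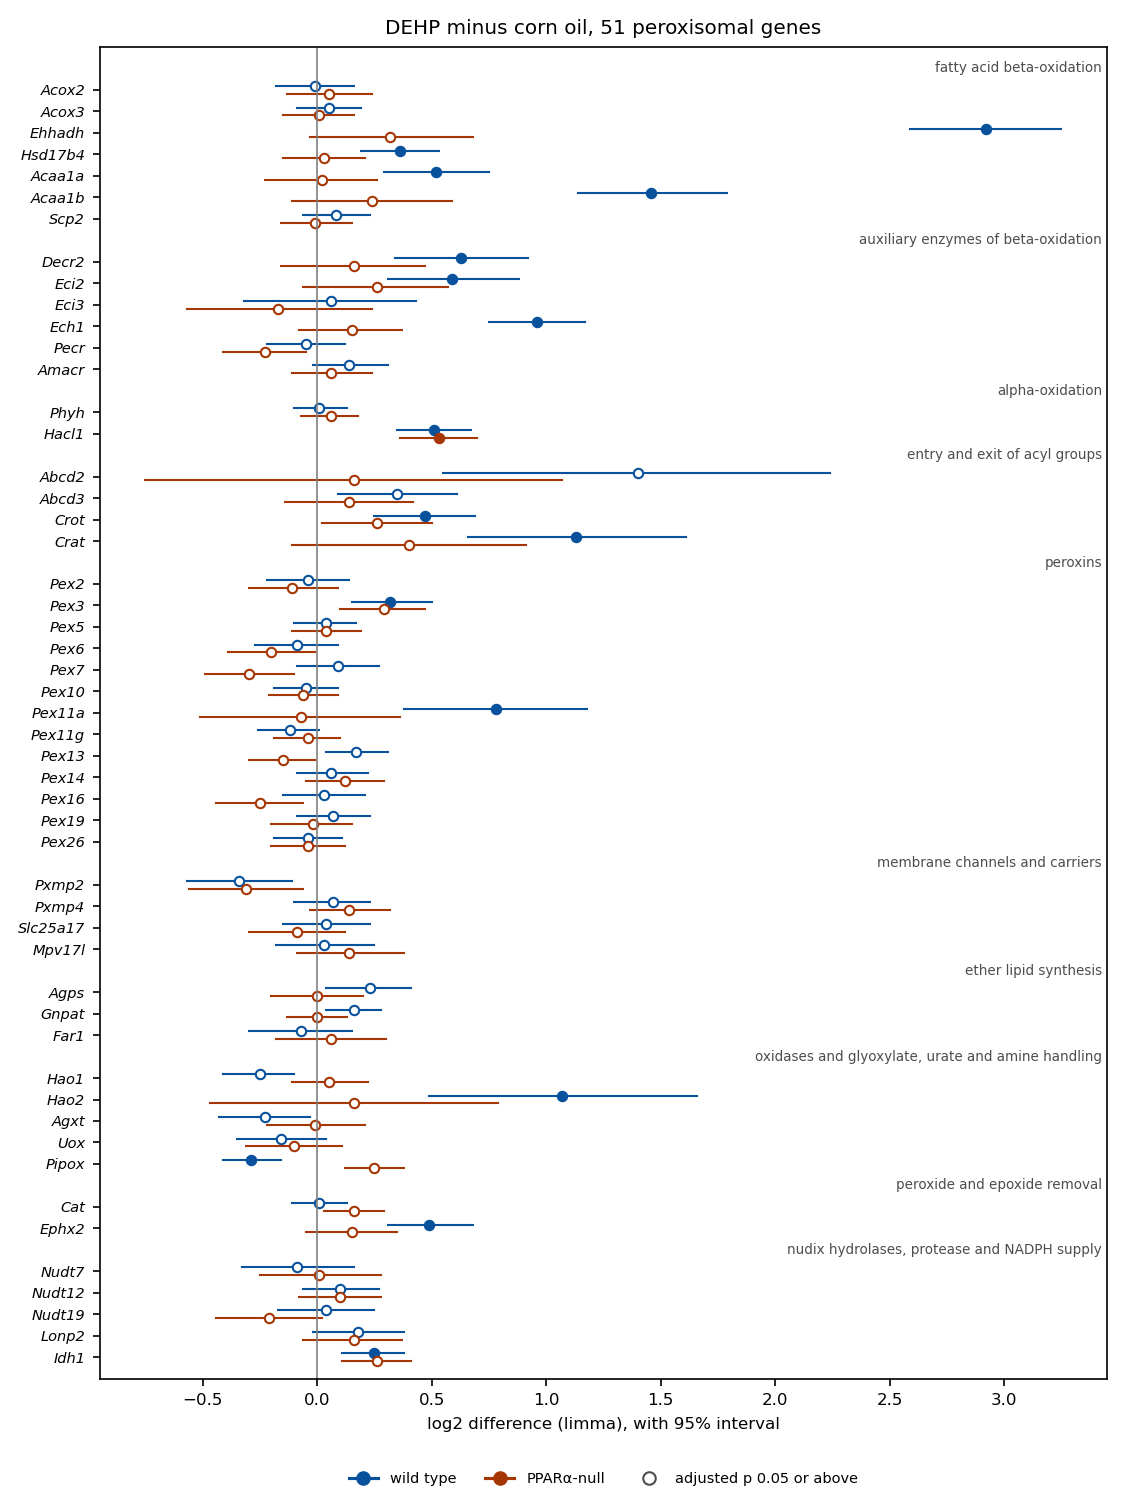
Log2 difference between DEHP and corn oil (horizontal axis, limma estimate with 95% interval) for each of the 51 genes (vertical axis, by role) in wild-type and PPARα-null mice. Filled points have adjusted p below 0.05: 16 genes in wild-type mice, most of them in the upper, oxidation part, and Hacl1 alone in null mice.

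Of 13 peroxins, Pex11a and Pex3 rose in wild-type mice. Pex11a, which elongates and divides peroxisomes, read 8.72, 9.16, 8.97 and 8.99 in wild-type controls and 9.43, 9.48, 10.56 and 9.48 with DEHP. It read 8.62, 8.62, 8.75 and 8.83 in null controls and 8.56, 8.60 and 8.73 in null DEHP animals, which overlap. The wild-type rise was 0.78 ± 0.19 (1.71-fold, adjusted p = 0.03), lost without WT-52, WT-54 or WT-55 (up to 0.0887). WT-58 stood about 1 log2 unit above the other treated animals, which lay close together. The wild-type minus null difference, 0.85, did not pass the test (adjusted p = 0.163).

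Pex3, the membrane receptor that docks newly made peroxisomal membrane proteins, read 8.72, 8.79, 8.70 and 8.50 in wild-type controls and 8.92, 8.93, 9.19 and 8.96 with DEHP (0.32 ± 0.08, adjusted p = 0.0374). This call was lost in 7 of 8 fits with 1 animal left out, all but that without WT-53 (up to 0.118). In null mice it read 8.50, 8.50, 8.31 and 8.63 with corn oil and 8.73, 8.81 and 8.78 with DEHP, again without overlap (0.29, adjusted p = 0.163). The 11 other peroxins had wild-type differences from -0.12 (Pex11g, a relative of Pex11a) to 0.17 (Pex13), with 95% intervals between -0.27 and 0.31. Among them were the import receptors Pex5 and Pex7, and Pex6, Pex10 and Pex2 of the machinery that recycles the receptors.

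Among the 19 other proteins, Ephx2, Hao2 and Idh1 rose in wild-type mice and Pipox fell. Ephx2, the soluble epoxide hydrolase, read 11.53, 11.69, 11.66 and 11.49 with corn oil and 11.97, 11.96, 12.35 and 12.06 with DEHP (0.49 ± 0.09, 1.41-fold, adjusted p = 0.00414). Idh1, a source of NADPH in cytosol and peroxisome, read 12.15, 12.12, 12.11 and 12.10 with corn oil and 12.33, 12.34, 12.46 and 12.34 with DEHP (0.25 ± 0.06, adjusted p = 0.045). Its groups did not overlap, but each of the 8 fits with 1 animal left out lost the call (up to 0.124 without WT-58). Hao2, a hydroxyacid oxidase, rose by 1.07 ± 0.27 (adjusted p = 0.0392) at intensities below the array median in all animals. It read 4.08, 3.61, 3.46 and 3.75 with corn oil and 5.23, 5.07, 5.17 and 3.72 with DEHP. WT-59 lay among the controls and the other 3 treated animals above them, and the call was lost in 6 of 8 fits, without WT-53, WT-54, WT-55, WT-56, WT-57 or WT-58 (up to 0.117).

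Pipox, which oxidises sarcosine and pipecolic acid, had DEHP differences of opposite sign in the 2 genotypes. It read 11.24, 11.20, 11.17 and 11.16 in wild-type controls and 10.93, 10.89, 10.92 and 10.88 with DEHP. It read 11.11, 11.26, 11.01 and 11.22 in null controls and 11.37, 11.42 and 11.41 with DEHP. Treated wild-type mice were below, and treated null mice above, all other animals. The wild-type fall was -0.29 ± 0.06 (0.819-fold, adjusted p = 0.0102). The null difference of 0.25 ± 0.06 had adjusted p = 0.0838 (0.0494 without KO-116), and the wild-type minus null difference was -0.54 ± 0.09 (adjusted p = 0.00963).

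The remaining oxidases and glyoxylate enzymes had differences below 0 in wild-type mice, without a call. Hao1, the glycolate oxidase, read 11.35 to 11.44 with corn oil and 11.06 to 11.30 with DEHP (-0.25 ± 0.07, adjusted p = 0.0685, and 0.0378 without WT-59). Agxt, which detoxifies glyoxylate, had a difference of -0.23 and the urate oxidase Uox of -0.16. Catalase, Cat, the main peroxide-removing enzyme, read 12.73 to 12.91 with corn oil and 12.79 to 12.94 with DEHP in wild-type mice. That difference was 0.01 with a 95% interval from -0.11 to 0.13. The membrane proteins Pxmp2, Pxmp4, Slc25a17 and Mpv17l, the ether lipid enzymes Agps, Gnpat and Far1, the nudix hydrolases Nudt7, Nudt12 and Nudt19 and the protease Lonp2 were not called. Their wild-type differences ran from -0.34 for Pxmp2 to 0.23 for Agps. Far1 lay below the array median in all animals.

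With corn oil alone, 8 of the 51 genes were lower in null than in wild-type mice (15.7%, against 0.547% of all genes), where 0.642% of all genes were higher. In the same contrast the summed intensity of stellate cell markers was 2239 to 2561 in wild-type and 2724 to 3988 in null controls, without overlap, and that of Kupffer cell and macrophage markers 1776 to 2064 and 1992 to 2622. All 8 measured markers of each type had differences above 0 (medians 0.33 and 0.251), without a call, and their part in these results was not tested. Of the 8 peroxisomal genes that were lower, 6 also rose with DEHP in wild-type mice: Decr2, Eci2, Ech1, Hsd17b4, Hacl1 and Ephx2. The contrasts share the wild-type controls, so their values are given side by side only. Decr2 read 9.01, 8.75, 8.94 and 8.87 in null mice given corn oil and 9.10, 9.05 and 9.0 in those given DEHP, all below every wild-type animal. The corn oil difference was -1.57 ± 0.14 (0.337-fold, adjusted p = 9.63e-06), beside its DEHP rise of 0.63. Eci2 read 8.93, 8.87, 8.99 and 9.13 in null controls and 9.10, 9.48 and 9.12 in null DEHP animals. Its corn oil difference was -1.12 ± 0.14 (adjusted p = 0.000249) and that of Ech1 -0.95 ± 0.10 (adjusted p = 6.49e-05). Ehhadh, with the largest DEHP rise, gave -0.15 between the control groups, without a call, with a 95% interval from -0.48 to 0.18 (adjusted p = 0.773).

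Pxmp4, a peroxisomal membrane protein, differed by genotype and was not called for treatment. It read 9.43, 9.58, 9.46 and 9.28 in wild-type controls and 9.41, 9.45, 9.66 and 9.50 in wild-type DEHP animals. It read 8.30, 8.05, 8.26 and 8.24 in null controls and 8.31, 8.37 and 8.39 in null DEHP animals. Every null animal lay below every wild-type animal. Treated and control animals overlapped in wild-type mice, while in null mice the treated animals lay just above the controls. The genotype difference was -1.23 ± 0.08 with corn oil (0.427-fold, adjusted p = 2.77e-07) and -1.15 ± 0.08 with DEHP (adjusted p = 3.25e-07). Its DEHP differences were 0.07 (95% interval -0.10 to 0.23) in wild-type and 0.14 (-0.03 to 0.32) in null mice.

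The other genes lower in null controls differed by less. Hsd17b4 read 10.80 to 10.98 in null against 11.26 to 11.42 in wild-type controls (-0.49 ± 0.08, adjusted p = 0.00388). Ephx2 read 11.02, 11.19, 10.92 and 11.10 in null controls and 11.18, 11.20 and 11.25 in null DEHP animals, below all wild-type mice (-0.53 ± 0.09 with corn oil, adjusted p = 0.00396). Hacl1 differed by -0.36 ± 0.08 (adjusted p = 0.0256), a call lost without WT-52, WT-53, WT-54, KO-115 or KO-116 (up to 0.0947). Pex16, which helps to insert membrane proteins, read 9.57, 9.43, 9.58 and 9.54 in null and 9.93, 9.94, 9.88 and 9.88 in wild-type controls (-0.38 ± 0.08, adjusted p = 0.036), and the call was lost in all 8 fits with 1 of these animals left out (up to 0.103).

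Under DEHP, 18 of the 51 genes were lower in null than in wild-type mice and 1, Pipox, was higher (35.3% and 1.96%, against 5.61% and 5.09% of all genes). The class counts were 11 of 19 for oxidation, 4 of 13 for peroxins and 3 of 19 lower for the others. Of the 18, 10 had risen with DEHP in wild-type mice and 8 had not passed that test. Both contrasts use the same treated wild-type animals, so these counts are given side by side only. The widest gaps were those of Ehhadh (-2.75 ± 0.17, adjusted p = 4.24e-08), Decr2 (-2.04 ± 0.15), Abcd2 (-2.01 ± 0.43, adjusted p = 0.00632), Acaa1b (-1.77 ± 0.16) and Ech1 (-1.76 ± 0.11, adjusted p = 4.24e-08). Abcd2 had little signal in null mice, near or below the array medians, so the size of its gap is uncertain. Pipox was higher in null mice by 0.50 ± 0.06 (adjusted p = 0.000141).

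The peroxins that were lower in null mice under DEHP were Pex11a (-1.11 ± 0.20, adjusted p = 0.00237), Pex16 (-0.66 ± 0.09, adjusted p = 0.000255), Pex7 (-0.48 ± 0.09, adjusted p = 0.00298) and Pex13 (-0.35 ± 0.07, adjusted p = 0.00393). Pex7 carries enzymes with an N-terminal signal to the organelle, and Pex13 is part of the pore-forming docking complex. Pex16 read 9.86, 9.86, 10.13 and 9.91 in treated wild-type and 9.43, 9.04 and 9.37 in treated null mice. Pex7 read 10.07, 9.99, 9.84 and 9.97 in treated wild-type mice and 9.58, 9.25 and 9.61 in treated null mice. Neither gene's groups overlapped. Its difference between treated and control animals was 0.09 in wild-type and -0.30 in null mice, neither of which passed the test (adjusted p = 0.686 and 0.16). Pex13 read 8.93, 8.75, 8.74 and 8.87 in treated wild-type and 8.43, 8.44 and 8.56 in treated null mice, with DEHP differences of 0.17 and -0.15. For both genes the wild-type minus null difference missed the threshold (Pex7 0.39, adjusted p = 0.161, and Pex13 0.33, adjusted p = 0.107).

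Acaa1a, Eci2, Hsd17b4, Ephx2 and Pxmp4 also differed under DEHP, by -0.72, -1.46, -0.81, -0.88 and -1.15. The differences of Abcd3, Hacl1, Pecr and Gnpat were -0.45, -0.33, -0.28 and -0.21. Pecr read 11.30, 11.18, 11.18 and 11.41 in treated wild-type and 11.08, 10.79 and 11.09 in treated null mice, and Gnpat 9.40, 9.44, 9.51 and 9.40 and 9.23, 9.17 and 9.29, with no overlap in either gene. Single animals decided these 4 calls: without KO-122 their adjusted p were 0.15, 0.0875, 0.27 and 0.158. Abcd3 and Hacl1 also lost the call without KO-121, Pecr without WT-56, WT-57 or WT-59, and Gnpat without any of the others except KO-123. In the same contrast 5 of 8 endothelial and 4 of 8 stellate cell markers were higher in null mice, against 5.09% of all genes. So were 2 of 9 hepatocyte, 1 of 8 Kupffer cell and macrophage and 1 of 7 neutrophil markers. No cholangiocyte, lymphocyte or adipocyte marker was called. Summed hepatocyte marker intensity was 81615 to 85320 in treated wild-type and 88089 to 93335 in treated null mice, without overlap. Summed endothelial marker intensity was 2353 to 2657 in treated wild-type and 3015 to 3297 in treated null mice, and that of stellate cells 2161 to 2321 and 2636 to 3544, with no listed marker of either type below 5.48 in log2. The part of all these cell markers in these results was not tested.

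**Figure D3:**
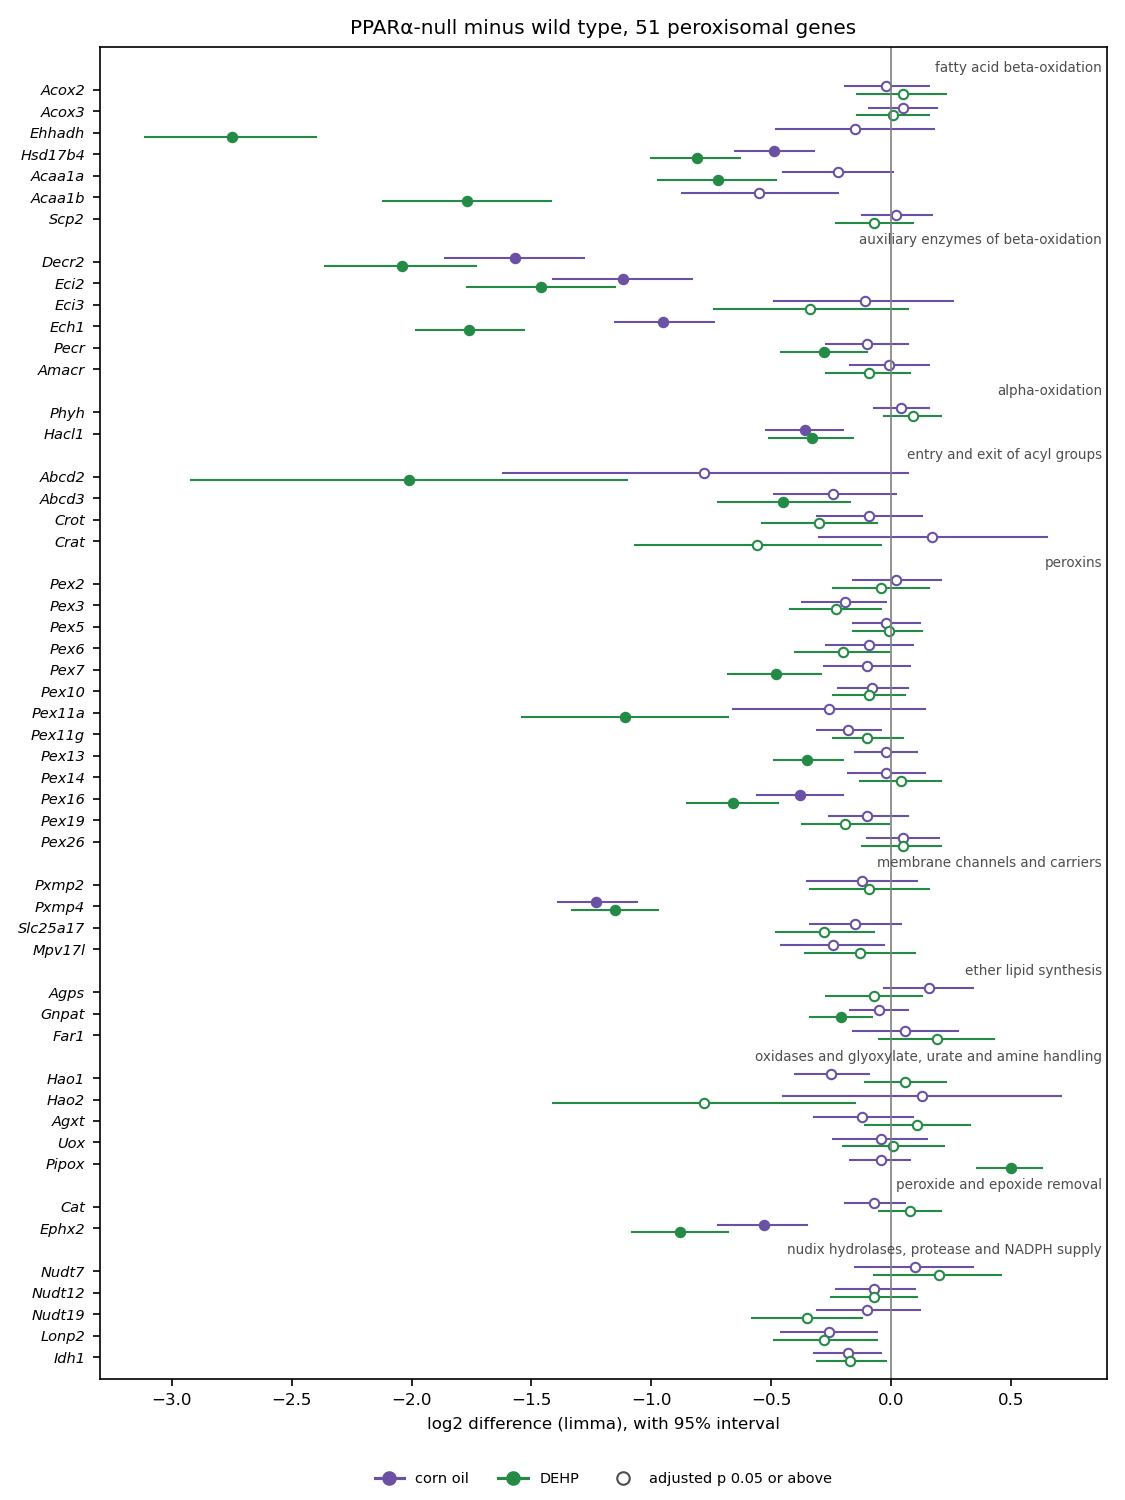
Log2 difference between PPARα-null and wild-type mice (horizontal axis, limma estimate with 95% interval) for the 51 genes (vertical axis, by role), with corn oil and under DEHP. Filled points have adjusted p below 0.05: 8 genes with corn oil, all below 0, and 19 under DEHP, of which Pipox alone is above 0.

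By animal, the rise of the oxidation class was present in all 4 treated wild-type mice and largest in WT-58. The median over its 19 genes, measured from the wild-type control mean, was 0.400, 0.356, 0.610 and 0.375 in WT-56, WT-57, WT-58 and WT-59, and -0.107 to 0.100 in the controls. In null mice it was -0.274 to -0.057 with corn oil and -0.218 to -0.016 with DEHP. WT-58 was the highest treated animal for 14 of the 15 genes that rose. For peroxins the treated wild-type medians, -0.051 to 0.136, spanned those of the controls, -0.002 to 0.024. The count of members called in wild-type mice moved with single control animals, from 16 in all to 8 without WT-55 and 10 without WT-52.

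Over the 51 genes the DEHP differences of wild-type and null mice, which share no animals, had the same sign for 37 genes (Spearman rho 0.56, Pearson r 0.51, across genes that are not independent replicates). Over all 19938 genes the same correlations were 0.09 and 0.18. Only 9860 of these had a mean log2 of at least 6, so the 2 sets differ in signal, and genes of like signal were not compared. The share of all genes with the same sign was not counted. The median null difference of the 51 genes was 0.053, against 0.071 in wild-type mice. Over 21 mitochondrial fatty acid oxidation genes, the counterpart pathway for shorter chains, 12 rose in wild-type mice (57.1%, against 2.29% of all genes, median 0.351). Of these 21, 1 rose in null mice (4.76%, against 0.16% of all genes). In null compared with wild-type mice, 9 were lower with corn oil (42.9%, against 0.547%). Under DEHP 16 were lower (76.2%, against 5.61%) and 1 was higher (4.76%, against 5.09%). The DEHP difference was larger in wild-type mice for 7 of them (33.3%), beside 3 of the 19 peroxisomal oxidation genes (15.8%). Over all genes that share was 0.562%.

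**Figure D4:**
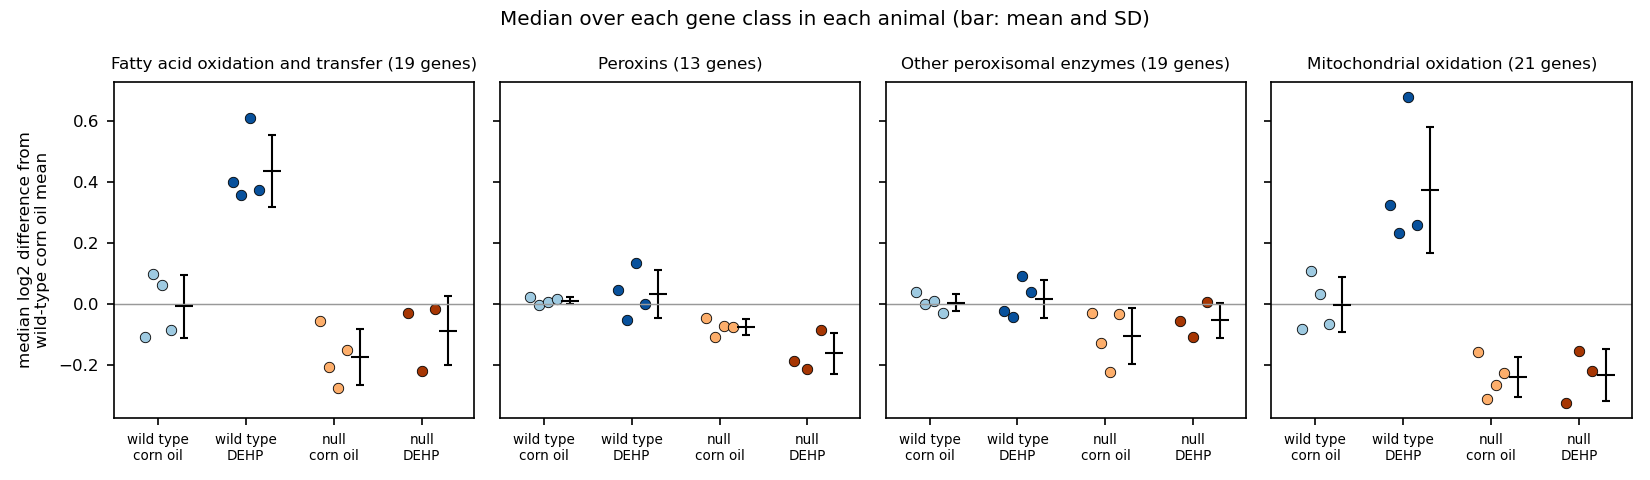
Median log2 difference from the wild-type corn oil mean (vertical axis) over the genes of each class in each animal, by group (horizontal axis), with the mean and SD of the animals beside the points. The treated wild-type animals stand above all others for the peroxisomal and mitochondrial oxidation classes, with WT-58 highest, and not for the peroxins or the other peroxisomal enzymes.

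Of 34 further measured genes, from a list of other peroxisomal genes not among the 51, 4 rose with DEHP in wild-type mice (11.8%, against 2.29% of all genes, median 0.042). They were Hsdl2, a hydroxysteroid dehydrogenase-like protein (0.65 ± 0.16, adjusted p = 0.0302), Acot8, the peroxisomal acyl-CoA thioesterase (0.53 ± 0.10, adjusted p = 0.00568), Dhrs4, a carbonyl reductase (0.50 ± 0.08, adjusted p = 0.00236), and Gstk1, a glutathione transferase (0.41 ± 0.08, adjusted p = 0.00744). Hsdl2 lost its call without WT-52, WT-54 or WT-55 (up to 0.0896). Their null differences ran from -0.24 (Acot8) to 0.20 (Hsdl2), without a call, and the response differed between genotypes for Acot8 (0.78 ± 0.15, adjusted p = 0.0206, and at most 0.0668, without KO-122 and likewise lost without WT-53). Acot8 and Dhrs4 were also lower in null controls (-0.49 and -0.60), as was Acbd5, a membrane tether (-0.47, adjusted p = 0.029), while the xanthine dehydrogenase Xdh was higher (0.54, adjusted p = 0.00131). That was 8.82% of the 34 lower and 2.94% higher, against 0.547% and 0.642% of all genes. Acbd5 and Acot8 lost these calls in 6 and 4 of 8 fits with 1 animal left out (up to 0.11 and 0.0711).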

How the data were processed

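The values are those of single-colour Affymetrix whole-transcript arrays. The authors deposited linear intensity values, from 1.77 to 23336.67, with array medians of 44.4 to 47.5. Per the labels' protocols, biotin-labelled targets were made from 300 ng of liver RNA per mouse. How the authors normalized the arrays, and any array batch, was not stated in what was used. Log2 of the deposited intensity was analysed without further scaling. Probe sets numbered 35494, of which 21789 named a single gene, 1621 several genes and 12084 no gene, leaving 19938 genes.

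Group means were fitted over all 15 arrays with limma 3.58.1 (R 4.3.3), adjusting p by Benjamini-Hochberg over all genes, threshold 0.05. In a test on simulated data of 19938 genes, 1.5-fold changes were found for 85 of 100 genes in the wild-type contrast and 79 of 100 in the null contrast. Among unmoved genes 10 and 8 were called. The simulated noise was independent between genes, with 1 spread per gene, so it held no animal that is high in many genes at once, as WT-58 was. The number of arrays limits precision. No arrays were identical. Members and lists were chosen with earlier results of these data known. Members called in any contrast are given with their values by animal or, for some groups, the range, others by name or range, besides Ppara and called genes of a list of other peroxisomal genes. A planned search of protein targeting signals was not run, as protein sequences were not used here. Promoters were searched in Python 3.11.15. Normalization, filter, offset, variance model, groups fitted and single animals were varied. Averaging a gene's probe sets leaves the members' values as they are, since each has 1, and bears only on the other genes.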

Additional observations from a re-analysis of the deposited data

Results flagged for a closer look

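In 4 genes the DEHP difference of wild-type mice minus that of null mice passed the test: Ehhadh (2.60), Acaa1b (1.22) and Ech1 (0.81), larger in wild-type mice, and Pipox (-0.54), of opposite sign in the genotypes.

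Single animals stood apart from the other 3 of their group, by Dixon's criterion at 95%, in 13 of 156 groups of 4 examined, where chance gives about 1 in 20. Of the 13, 6 were treated wild-type animal WT-58, each time the highest: Decr2 at 11.61 (others 10.88 to 10.96), Eci2 at 11.13 (10.50 to 10.58), Abcd3 at 11.89 (11.18 to 11.28), Pex3 at 9.19 (8.92 to 8.96), Pex11a at 10.56 (9.43 to 9.48) and Idh1 at 12.46 (12.33 to 12.34). Treated wild-type animal WT-59 was the highest for Mpv17l at 8.24 (others 7.86 to 7.89) and Nudt7 at 11.75 (11.49 to 11.52) and the lowest for Hao2 at 3.72 (5.07 to 5.23). The others were Far1 at 5.17 in treated wild-type animal WT-57 (4.96 to 4.99), Pex6 at 9.0 in control WT-52 (9.25 to 9.29) and Pex26 at 6.92 in null control KO-116 (6.77 to 6.78). The median over the 51 genes was lowest in control WT-55, at -0.028 from the wild-type control mean (others 0.019 to 0.028).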

How the results depend on the processing

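The count of the 51 genes called with DEHP in wild-type mice, 16, was 10 when the fit held only those 2 groups and 8 to 16 with 1 animal left out. In null mice it was 1, and became 3 among genes with a mean log2 of at least 6, 3 with an offset of 16 before log2, 3 with a trended robust variance, 0 with only the 2 groups (Hacl1 then had limma adjusted p = 0.161), and 1 to 2 with 1 animal left out. The added null calls were Idh1 and Pipox. The null differences of 0.26 and 0.25 behind them were the same size in each of those 3 fits. The interaction count was 4 (4 to 5 under the alternatives, 3 to 6 with 1 animal left out), the count between control groups 8 (8 throughout, 6 to 8) and that under DEHP 19 (16 to 22, 15 to 20). The alternatives of normalization, filter, offset, variance model and groups fitted (the last not for the interaction) kept the 4 interaction calls and the 8 calls between control groups, and kept 9 of 16 in wild-type mice and 15 of 19 under DEHP. No called difference changed sign. No paired analysis was possible because the groups share no animal numbers. Genes below the array median (Eci3, Far1 and Hao2 in all animals, Abcd2 in 8) have little signal to measure there. Over all genes, the null DEHP count was 94 in the reported fit and 432 with the filter, 287 with the offset, 293 with the trended variance and 1 with only the 2 groups. The interaction count was 179 and became 574, 418 and 424 under the first 3 of these, and the count under DEHP was 2133 and became 1331 with only the 2 groups. With 1 animal left out, these counts fell as low as 9, 61 and 1019, and that of wild-type mice from 770 to 433.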
